A study of Mus musculus with 2 samples.

Results

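This account covers 9 genes of the citric acid cycle and of the pyruvate dehydrogenase complex that feeds it: Dlat, Cs, Aco1, Idh2, Idh3a, Idh3b, Idh3g, Sdha and Mdh2. They were taken from 12393 genes by gene symbol, with every probe set that the array annotation gives to them, 20 probe sets in all. The list was drawn up with earlier results of these data known. Transcripts of primitive hematopoietic stem cells (HSC) and of maturing HSC, both sorted by flow cytometry from mouse bone marrow after a short culture without treatment, were measured on 1 Affymetrix array each. The sources used here do not state strain, age, the number of pooled animals or the surface markers of the sort. Each array was hybridised with cRNA made from a cDNA library that had been amplified by PCR, size selected and cloned in a phage vector, so its values describe the make-up of 1 cloned library per population.

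The pyruvate dehydrogenase complex turns pyruvate, the end product of glycolysis, into acetyl-CoA in the mitochondrion. Citrate synthase joins the acetyl group to oxaloacetate, and the enzymes of the cycle then oxidise it stepwise to carbon dioxide, passing electrons to NADH and FADH2 for the respiratory chain. Adult HSC at rest are known for leaning on glycolysis, and pyruvate dehydrogenase kinases, which switch the complex off, are known to take part in that. Of the 9 genes, Aco1 encodes the cytosolic aconitase, which doubles as an iron-regulated RNA-binding protein, and Idh2 the NADP-dependent mitochondrial isocitrate dehydrogenase. Both catalyse a reaction of the cycle without being its standard enzyme.

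Values are MAS5 intensities in arbitrary units. They compare 1 probe set between the arrays, and levels of different probe sets cannot be compared as transcript levels. Ratios are log2 of primitive over maturing, so negative values are lower in primitive HSC. Intensities under 441, the pooled median of the probe sets, were set to that floor before the ratio, and a ratio with 1 array at the floor is a bound. Where 1 value per gene is given, it comes from the gene's probe set with the highest mean intensity. There were no replicates, so no difference could be tested against a spread between samples and no p-value is given. The pooled SD between probe sets of the same gene, 0.82 on the log2 scale over 1318 genes, is the only internal yardstick.

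Of 11 stem cell marker genes, 9 were above the floor in primitive HSC, with a summed intensity of 28462, and 9 in maturing HSC, with a sum of 22384. Without Procr, the brightest, the sums were 16891 in primitive HSC and 20489 in maturing HSC, and 6 of the 11 were higher and 5 lower in primitive HSC, among the 5 Kit, Cd34, Meis1 and Tek. Markers of other lineages were present too. The 8 neutrophil and monocyte markers summed to 113762 on the primitive array, with 6 above the floor, and to 61060 on the maturing array, with 8 above it. Without S100a8 these sums were 67016 in primitive HSC and 41535 in maturing HSC, and 3 of the 8, Mpo, Csf3r and Ltf, were lower in primitive HSC. The 6 T and natural killer cell markers summed to 55695 with 5 above the floor in primitive HSC and to 11125 with 3 in maturing HSC. Without Ccl5 they summed to 17896 in primitive HSC and 9614.5 in maturing HSC, and Gzmb and Nkg7 were lower in primitive HSC. Macrophage markers summed to 4620 in primitive HSC (4 of 4 above the floor) and 2913 in maturing HSC (3 of 4). Erythroid markers summed to 2603 in primitive HSC and 1497 in maturing HSC, with 2 of 3 above the floor in each, or to 951 in primitive HSC and 1052 in maturing HSC without Klf1. B cell markers summed to 1464 in primitive HSC (2 of 4) and 2527 in maturing HSC (3 of 4). No marker was listed at 0, and Cd3e, Pax5 and Hba-a1 were below the floor on both arrays. The part of these other cells in the ratios below was not tested, and in sorted populations fewer cells of a type and less RNA per cell cannot be told apart.

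The comparison of primitive with maturing HSC showed 8 of the 9 genes lower in primitive HSC. Their median log2 ratio was -0.89, against 0.07 over the 8852 measured genes. A total of 4188 measured genes (47.3%) were lower in primitive HSC. Aco1, Cs, Idh3a and Dlat were at least 4-fold lower in primitive HSC, where 4.69% of all measured genes were, and 0 of the 9 were at least 4-fold higher, where 3.45% were. The 9 genes, the 4-fold threshold and the floor had been chosen with earlier results of these data known, so these contrasts are a description. The other 5 genes, Idh2, Idh3b, Idh3g, Sdha and Mdh2, lay within 2-fold, as did 66.7% of all measured genes. The genes therefore fell into a group of 4 with large differences and a group of 5 with small ones, of which Idh3g was the single gene higher in primitive HSC. Scaling the arrays to their hybridisation controls moved the median of all measured genes to -0.74. The 4-fold calls over all genes went with it, with 91 genes higher and 1231 lower in primitive HSC in place of 305 higher and 415 lower. The 9 genes had a median of -1.86 on that scale, which was -1.13 relative to all genes, against -0.96 in the main setting. Across the settings the value relative to all genes ran from -0.64, with the median of probe sets, to -1.20. The latter came from the 6 members left when probe sets that can bind several transcripts were removed.

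By probe set, 18 of 20 were lower in primitive HSC, against 50.7% of the 12964 measured probe sets, 5 of 20 were at least 4-fold lower, against 4.76%, and 0 of 20 were 4-fold higher, against 3.03%. Probe sets of 1 gene share their transcript and are not replicates, and these shares too compare genes listed with earlier results known. Of the 8 genes with more than 1 measured probe set, all probe sets went the same way in 6, where 55.6% of such genes on the array did. The exceptions were Idh3a and Idh3g.

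**Figure D1:**
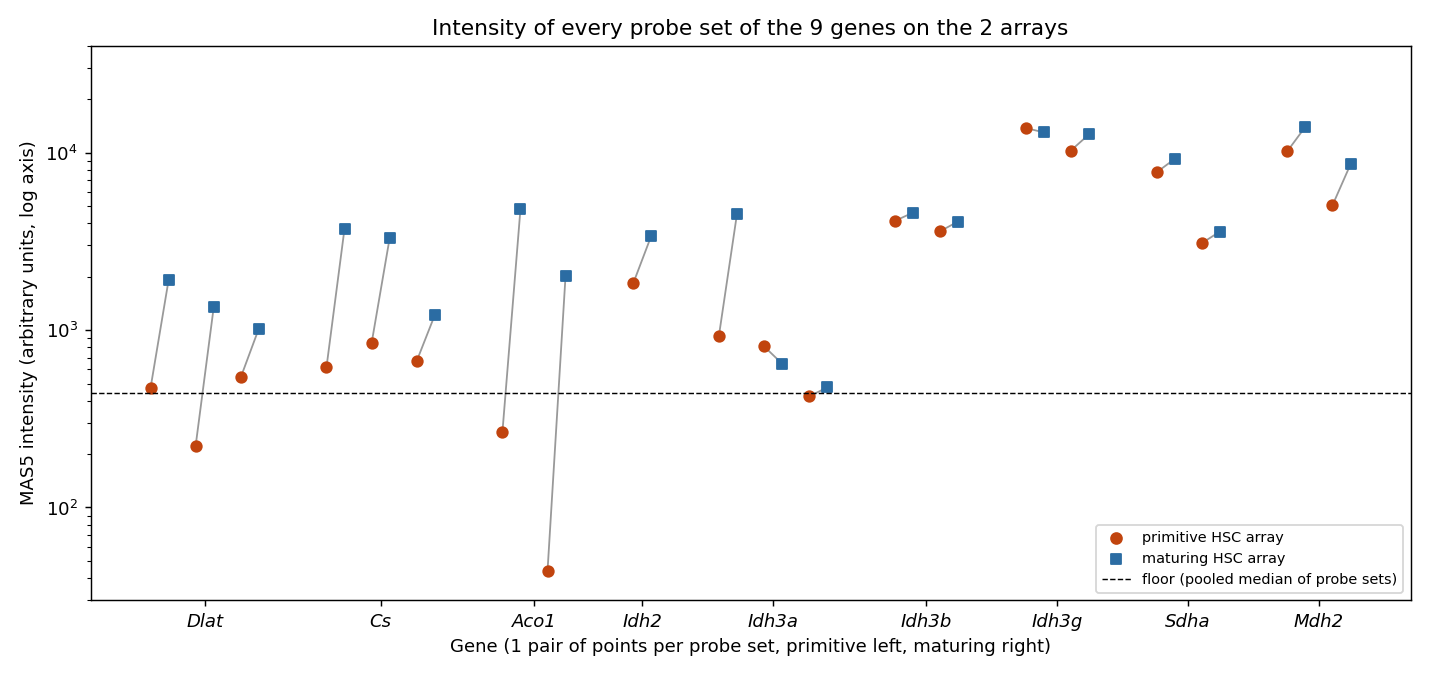
MAS5 intensity (log axis, arbitrary units) of each of the 20 probe sets in primitive HSC (circle, left) and in maturing HSC (square, right), with the floor of 441 as a dashed line. Points for Dlat, Cs and Aco1 lie far apart in each probe set but the dimmest of Dlat and Cs, those for Idh3b and Sdha nearly level, and the 3 probe sets of Idh3a disagree.

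Dlat encodes the acetyltransferase core of the pyruvate dehydrogenase complex, the subunit that carries the acetyl group on a lipoyl arm. Its brightest probe set read 472 in primitive HSC and 1914 in maturing HSC, a log2 ratio of -2.02. The next read 223 in primitive HSC and 1344 in maturing HSC, with the primitive side under the floor, which makes it at least 3.05-fold lower there. The last read 542 in primitive HSC and 1019 in maturing HSC (-0.91). All 3 were lower in primitive HSC, and where both arrays were above the floor the ratios were -2.02 and -0.91. At 4.06-fold Dlat lay just past the threshold, and its primitive intensity lay just above the floor. With the floor at percentile 75 its ratio became a bound of -0.90.

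The partners of Dlat went the same way. Pdha1 and Pdhb encode the subunits of the decarboxylase that takes up pyruvate. Pdha1 read 5211 in primitive HSC and 11423 in maturing HSC (-1.13), and its second probe set was at least 3.22-fold lower in primitive HSC. Pdhb read 2975 in primitive HSC and 6843 in maturing HSC (-1.20). Its second probe set was below the floor on both arrays, at 261 in primitive HSC and 73.7 in maturing HSC. Dld, the dihydrolipoamide dehydrogenase shared with oxoglutarate dehydrogenase, read 74.7 in primitive HSC and 743 in maturing HSC, at least 1.68-fold lower in primitive HSC. Thus 4 of 4 measured subunits of the complex were lower in primitive HSC, and 3 of them by more than 2-fold. Over all measured genes, 47.3% were lower in primitive HSC and 17.6% were at least 2-fold lower there. Pdhx was not analysed here.

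Genes that control the entry of pyruvate did not share that direction. The kinase gene Pdk3 was 1.94-fold higher in primitive HSC (1525, against 784 in maturing HSC). Pdk1 was close to even, at 1760 in primitive HSC and 1664 in maturing HSC (0.08), with a second probe set at 0.53. Pdk2 was lower in primitive HSC at -0.53, and Pdk4 was below the floor on both arrays. Mpc1, a subunit of the mitochondrial pyruvate carrier, read 6915 in primitive HSC and 3868 in maturing HSC (0.84). All these ratios were within 2-fold, about the SD between probe sets or less apart from those of Pdk3 and Mpc1, which exceeded it slightly.

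Cs encodes citrate synthase, which forms citrate and starts the cycle. Its brightest probe set read 617 in primitive HSC and 3732 in maturing HSC, a log2 ratio of -2.60 or 6.04-fold lower in primitive HSC. The next read 843 in primitive HSC against 3297 in maturing HSC (-1.97), and the last 669 in primitive HSC against 1214 in maturing HSC (-0.86). The primitive values were close together, between 617 and 843, while the maturing values spanned 1214 to 3732, so the size of the difference rested on the probe set chosen. The ratio passed 4-fold with the brightest probe set and not with the median of the 3 (-1.97). With the floor at percentile 75 it was a bound of -1.86.

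Aco1 showed the lowest ratio of the 9 genes. Its probe sets read 266 and 43.9 in primitive HSC, both under the floor, against 4807.5 and 2030 in maturing HSC. Aco1 was therefore at least 10.9-fold lower in primitive HSC by the first and at least 4.60-fold lower by the second. These bounds move with the floor, and the first was -2.23 with the floor at percentile 75. With the floor at percentile 25 both sides were above it and the ratio was -4.18. A total of 18.5% of measured genes were at the floor on the primitive array alone, and Aco1 was 1 of them. It was the only member still past the threshold at 8-fold, where 0.678% of all measured genes were lower in primitive HSC, and it passed 4-fold in each of the settings tried at that threshold. The 8-fold call rests on the first probe set, of a type that can bind several transcripts, and the bound of the second was 4.60-fold.

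NAD-dependent isocitrate dehydrogenase, which releases carbon dioxide and yields NADH, is built from an alpha subunit with the main catalytic role and from beta and gamma subunits. The 3 subunit genes did not move together. Idh3a, the alpha subunit gene, had a brightest probe set that read 932 in primitive HSC and 4521 in maturing HSC (-2.28). Its other probe sets read 810 in primitive HSC against 647 in maturing HSC (0.32), and 423 in primitive HSC against 475 in maturing HSC (-0.11, a bound). The probe sets of Idh3a thus spanned from clearly lower to slightly higher in primitive HSC, and with their median the gene stood at -0.11. Its call as 4-fold lower in primitive HSC rests on 1 probe set of 3, whose suffix marks it as matching several transcripts of the gene.

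Idh3b, the beta subunit gene, read 4125 in primitive HSC and 4595 in maturing HSC (-0.16), and its second probe set gave -0.18. Idh3g, the gamma subunit gene, read 13789 in primitive HSC and 13020 in maturing HSC (0.08), while its second probe set read 10282 in primitive HSC and 12676 in maturing HSC (-0.30). Both genes were near even, and the sign of Idh3g turned with the probe set. It also turned to -0.01 with the median ratio set to 0, -0.36 with quantile normalization and -0.41 with lowess. The NADP-dependent Idh2, which makes NADPH in the mitochondrion, had 1 probe set, at 1835 in primitive HSC and 3400.3 in maturing HSC (-0.89). Its cytosolic counterpart Idh1 read 72.6 in primitive HSC and 460 in maturing HSC, barely above the floor on the maturing array, and its bound of -0.06 leaves the size of the difference unmeasured.

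The next steps, from the wider list, were lower in primitive HSC for 4 of 5 measured genes, where 47.3% of all measured genes were. Ogdh, the first subunit of oxoglutarate dehydrogenase, stood at -0.45. Dlst, its succinyltransferase, had probe sets that opposed each other, at least 2.80-fold higher in primitive HSC by one and at least 1.20-fold lower by the other. The subunits of succinyl-CoA synthetase, which yields a nucleoside triphosphate, were lower in primitive HSC in 3 of 3 cases. Suclg1, the shared alpha subunit gene, stood at -0.41, and the beta subunit genes Suclg2 and Sucla2 were at least 2.58-fold and 2.62-fold lower there.

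Succinate dehydrogenase is both a cycle enzyme and complex II of the respiratory chain. Sdha, its flavoprotein, read 7747 in primitive HSC and 9216 in maturing HSC (-0.25), and its second probe set read 3087 in primitive HSC and 3587 in maturing HSC (-0.22). The probe sets of Sdha gave nearly the same small ratio. Sdhb, the iron-sulfur subunit gene, read 5195 in primitive HSC and 2537 in maturing HSC, 2.05-fold higher in primitive HSC (1.03). A difference of 2-fold or more in that direction was seen in 15.6% of all measured genes. The membrane anchor genes Sdhc (-0.63) and Sdhd (0.38) lay within 2-fold in opposite directions, and the probe sets of Sdhd disagreed in sign (-0.06 for the second). The 4 subunits of this complex were thus split evenly, 2 higher and 2 lower in primitive HSC.

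Fumarase, encoded by Fh1, stood at -0.52. Mdh2, the mitochondrial malate dehydrogenase gene that closes the cycle by remaking oxaloacetate, read 10203 in primitive HSC and 14009 in maturing HSC (-0.46). Its second probe set read 5050 in primitive HSC and 8599 in maturing HSC (-0.77). Both were lower in primitive HSC by less than 2-fold. Mdh1, the cytosolic isoenzyme gene of the malate-aspartate shuttle, read 15863 in primitive HSC and 13760 in maturing HSC (0.20). Of its 4 probe sets, 3 were slightly higher in primitive HSC and 1, with the primitive side under the floor, was at least 2.40-fold lower there.

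Enzymes that fill or drain the cycle came nearest to the large differences with Glud1, glutamate dehydrogenase, which makes oxoglutarate from glutamate. It read 1735 in primitive HSC and 6840.2 in maturing HSC (-1.98, 3.94-fold), just inside the threshold, and its second probe set read 907 in primitive HSC and 4592 in maturing HSC (-2.34). Got1, the cytosolic aspartate aminotransferase gene, was at least 2.29-fold lower in primitive HSC, and the mitochondrial Got2 stood at -0.55. Pcx, pyruvate carboxylase, and Me2, a mitochondrial malic enzyme gene, were at least 1.21-fold and 1.77-fold lower in primitive HSC. The ATP citrate lyase gene Acly stood at -0.37 with probe sets from -0.60 to 0.34. Me1 (0.61) and Pck2 (0.24) were higher in primitive HSC. Of 8 measured genes of this kind, 6 were lower in primitive HSC, bounds included, where 47.3% of all measured genes were.

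The wider list, 35 genes on the array besides the 9, had 31 measured, with 20 lower and 11 higher in primitive HSC and a median log2 ratio of -0.45. Over all measured genes 47.3% were lower in primitive HSC and the median was 0.07. None of the 31 reached 4-fold in the main setting, where 4.69% of all measured genes were lower and 3.45% higher in primitive HSC by that much. The floor fixed this for the bounds, 7 with the primitive and 1 with the maturing array at the floor. None of these was bright enough on the other array to reach 4-fold. With the floor at percentile 25, 4 of 34 were at least 4-fold lower in primitive HSC, against 998 of 11226 over all genes. At that floor 0 of 34 were as much higher, against 761 over all genes. At 2-fold or more, 7 of 31 were lower in primitive HSC, against 17.6% of all measured genes, and 2 of 31 were higher, against 15.6%. The count of lower genes lies near the share of all genes, and the count of higher genes lies under it. Bounds such as those of Dld (at least 1.68-fold lower) and Me2 (at least 1.77-fold lower) were not counted at 2-fold. Among genes bright enough to reach 4-fold, the large differences in the main setting were those of Aco1, Cs, Idh3a and Dlat, with Glud1 just under the threshold. The members had been listed with earlier results of these data known, so their contrast with the wider list, like that with all genes, is a description.

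**Figure D2:**
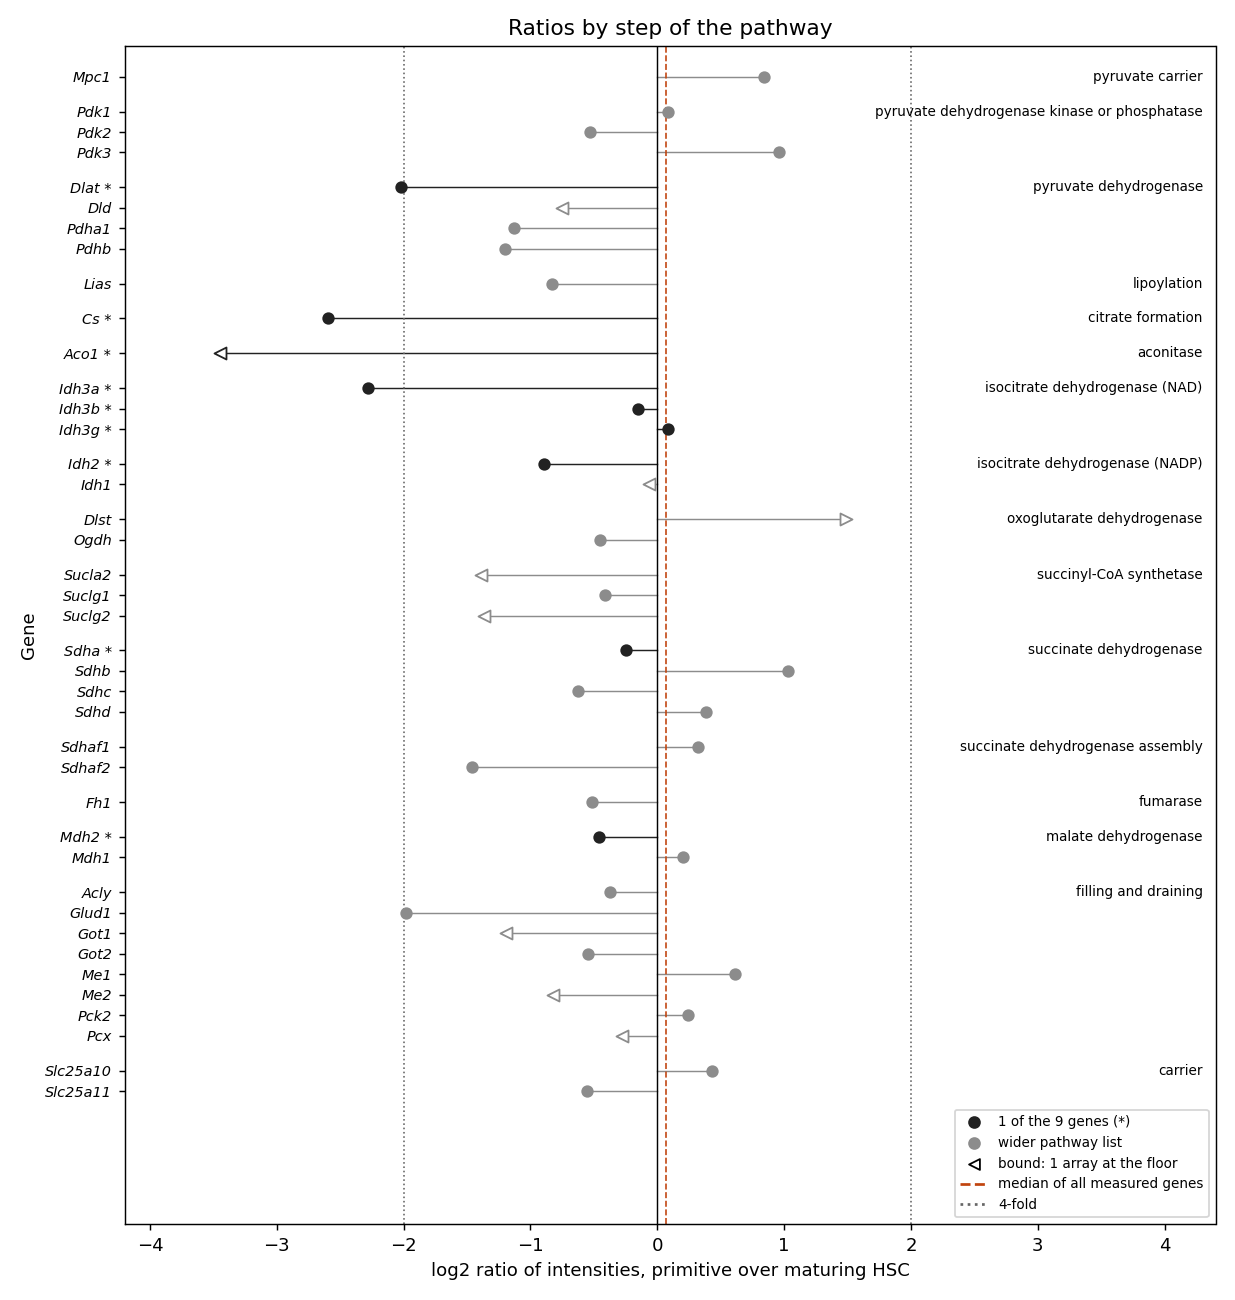
Log2 ratio of intensities, primitive over maturing HSC, for the 9 genes (black, starred) and the 31 measured genes of the wider list (grey), grouped by step of the pathway. Open triangles are bounds, dotted lines mark 4-fold and the dashed line is the median of all measured genes (0.07). The pyruvate dehydrogenase subunits all lie to the left of 0, while succinate dehydrogenase subunits lie on both sides.

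The 9 genes were also set beside genes of like probe set signal. Idh3b, Idh3g, Sdha and Mdh2 were in the brightest of 10 equal classes of measured genes by signal, whose median ratio was 0.44, and stood between -0.46 and 0.08. Cs, Aco1, Idh2 and Idh3a were in class 9, with a median of -0.03, and stood between -3.45 and -0.89. Dlat, the dimmest of the 9, was in class 7, with a median of -0.13, and stood at -2.02. Size did not follow signal throughout, since Dlat differed less than the brighter Aco1, Cs and Idh3a. The brightest probe sets of Cs and Idh3a gave the largest difference of their gene in the deposited intensities. Both probe sets of Aco1 gave bounds at the floor and cannot be ranked by the size of the difference. In Dlat the dimmest probe set differed least (-0.91). The bound of the next leaves its rank against the brightest (-2.02) open. All 9 genes lay below the median of their own class, which splits the genes of a class evenly, with differences from it of -0.36 for Idh3g and -3.42, as a bound, for Aco1. The differences of Idh3g, Idh3b (-0.59) and Sdha (-0.69) were smaller than the SD between probe sets (0.82), and those of the other members were larger. The near-even ratios of the 4 brightest genes were thus below the median of genes of like signal on these arrays, with differences of -0.36 to -0.90. After lowess, which removes a trend with signal, Mdh2 stood at -0.91 and Sdha at -0.55.

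**Figure D3:**
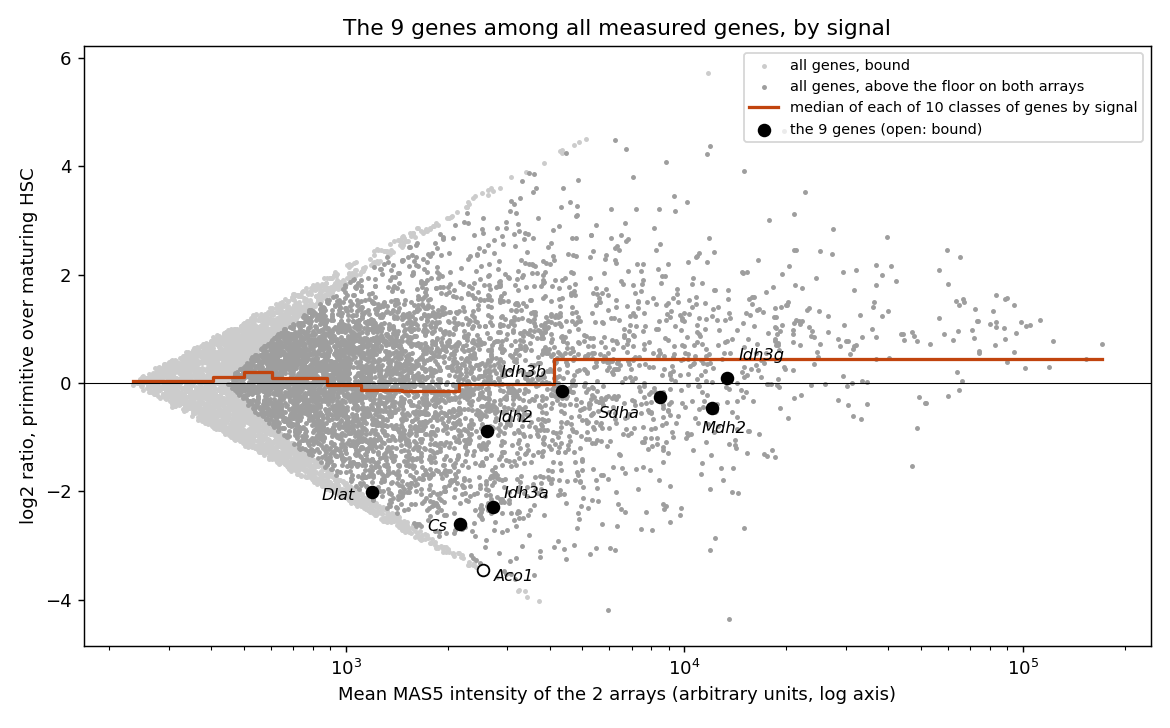
Log2 ratio, primitive over maturing HSC, against mean MAS5 intensity of the 2 arrays (log axis) for the 8852 measured genes (grey) and the 9 genes (black, open for the bound of Aco1). The line is the median of each of the 10 classes by signal. Each of the 9 genes lies under it.

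Genomic span, from the first to the last base of the gene in RefSeq, differed among the 9 genes as well. Idh3b (5.14 kb), Idh3g (7.94 kb) and Mdh2 (11.7 kb) were the shortest and had ratios between -0.46 and 0.08. Aco1 was the longest at 55.7 kb, and Idh3a, Cs and Dlat spanned 18.2, 24.8 and 25.1 kb. Sdha, at 28.0 kb, was longer than Cs and close to even. Over all measured genes the median ratio was 0.34 in the shortest of 5 equal classes by span, 0.11 in class 2 and between -0.10 and -0.03 in the remaining 3. The part of span, signal and probe set choice in the ratios was not tested.

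Promoter sequences are shown for 5 members, the 3 with large differences that RefSeq matched (Cs, Aco1 and Dlat) and 2 that were near even (Sdha and Idh3g), to set the letters beside the ratios. They run 5′ to 3′ on the gene's strand, from 250 bases before to 50 after the annotated start, in GRCm38.p6, and 8 of the 9 members were matched, all but Idh3a. Capitals mark matches on either strand to 8 motifs: CGCANGCG (NRF1), CCGGAAG (GABPA), GGGCGG (SP1), CCAAT (NFY), CACGTG (MYC), AAGATGGC (YY1), TNAAGGTCA (ESRRA) and TATAAA (the TATA box). None of the matches overlapped a match to another motif. Cs lies at chr10:128337477-128337776 (plus strand), Aco1 at chr4:40143015-40143314 (plus strand), Dlat at chr9:50659731-50660030 (minus strand), Sdha at chr13:74350191-74350490 (minus strand) and Idh3g at chrX:73786848-73787147 (minus strand).
Cs: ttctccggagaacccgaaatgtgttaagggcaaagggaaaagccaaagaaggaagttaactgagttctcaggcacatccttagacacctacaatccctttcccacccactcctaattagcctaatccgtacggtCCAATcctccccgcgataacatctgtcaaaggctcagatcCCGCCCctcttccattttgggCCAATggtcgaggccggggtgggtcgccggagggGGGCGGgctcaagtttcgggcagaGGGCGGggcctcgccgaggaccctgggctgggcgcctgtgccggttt
Aco1: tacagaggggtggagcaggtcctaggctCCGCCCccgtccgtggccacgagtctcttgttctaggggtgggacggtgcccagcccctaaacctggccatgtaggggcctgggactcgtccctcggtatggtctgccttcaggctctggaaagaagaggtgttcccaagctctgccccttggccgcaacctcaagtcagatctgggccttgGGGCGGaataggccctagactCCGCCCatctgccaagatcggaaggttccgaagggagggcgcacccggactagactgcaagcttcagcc
Dlat: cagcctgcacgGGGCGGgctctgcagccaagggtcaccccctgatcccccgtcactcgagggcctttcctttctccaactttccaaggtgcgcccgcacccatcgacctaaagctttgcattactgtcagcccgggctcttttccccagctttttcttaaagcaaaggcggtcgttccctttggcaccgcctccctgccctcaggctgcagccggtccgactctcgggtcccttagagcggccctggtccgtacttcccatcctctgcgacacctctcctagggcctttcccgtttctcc
Sdha: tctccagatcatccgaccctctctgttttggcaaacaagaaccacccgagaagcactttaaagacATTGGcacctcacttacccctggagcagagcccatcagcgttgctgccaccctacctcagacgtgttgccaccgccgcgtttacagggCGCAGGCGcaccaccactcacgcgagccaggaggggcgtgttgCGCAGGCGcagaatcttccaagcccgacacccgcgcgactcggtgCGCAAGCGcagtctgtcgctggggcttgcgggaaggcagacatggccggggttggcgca
Idh3g: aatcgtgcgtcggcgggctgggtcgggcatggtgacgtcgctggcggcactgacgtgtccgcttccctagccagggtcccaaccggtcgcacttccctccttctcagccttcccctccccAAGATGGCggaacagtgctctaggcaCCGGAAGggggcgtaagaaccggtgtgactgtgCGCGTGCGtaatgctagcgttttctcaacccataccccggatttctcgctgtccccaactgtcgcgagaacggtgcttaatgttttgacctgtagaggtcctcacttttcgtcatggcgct

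The SP1 motif GGGCGG stood in the promoters of Cs (3 matches), Aco1 (3), Dlat (1), Idh2 (2) and Mdh2 (2), 5 of 8 members, where 35.7% of 32851 promoters in the table held it. The NRF1 motif, bound by a factor known for nuclear genes of mitochondrial proteins, stood 3 times in the promoter of Sdha and 1 time in that of Idh3g, against 8.21% of all promoters. The GABPA motif stood in Idh3b and Idh3g (8.86% of all promoters) and the YY1 motif in Idh3g (2.75%). The NFY motif CCAAT stood in Cs, Idh2, Idh3b and Sdha (37.4%). CACGTG (7.15%), TNAAGGTCA (1.28%) and TATAAA (13.6%) matched none of the 8, which says only that these letters are not in these windows. The promoters of the 8 members were between 50.3% and 68.3% G and C, against a median of 52.7% over the table. The matched members with large differences, Cs, Aco1 and Dlat, shared GGGCGG, which Idh2 and Mdh2, within 2-fold, also held. CCAAT likewise stood in members of both groups. The NRF1, GABPA and YY1 motifs stood only in members within 2-fold. They are rare over all promoters (8.21%, 8.86% and 2.75%), so their absence from Cs, Aco1 and Dlat lies near those shares. Whether any motif separates the groups was not tested, and Idh3a was not matched. A match is a stretch of letters and no evidence of binding.

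The group of 4 depended on the setting. At the 4-fold threshold it held 4 genes as deposited, with the median ratio set to 0, scaled to the hybridisation controls and with the floor at percentile 25. It held 3 with quantile normalization and with lowess, where Dlat dropped out, and 3 of the 6 genes left when probe sets that can bind several transcripts were removed. It held 2, Aco1 and Idh3a, with the floor at percentile 75, and 1, Aco1, when each gene was given the median over its probe sets. The direction of all genes but Idh3g was the same in every setting that measured them.

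**Figure D4:**
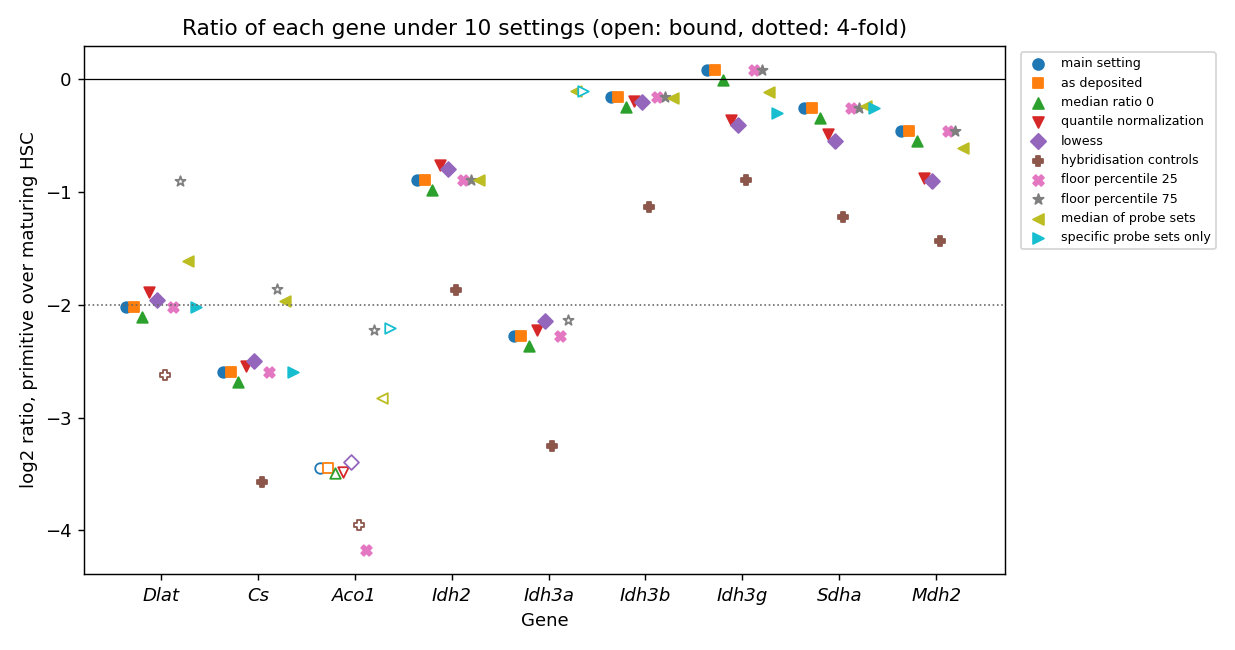
Log2 ratio, primitive over maturing HSC, of each of the 9 genes under 10 settings, with open symbols for bounds and a dotted line at 4-fold. Aco1 stays past 4-fold throughout, Idh3a ranges from -3.25 to -0.11, and Idh3g lies on either side of 0.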

How the data were processed

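Expression was measured on 2 Affymetrix arrays, 1 of primitive and 1 of maturing HSC. Per the submitters' processing notes the authors made the deposited intensity values with MAS5, of unstated version. This method summarises each probe set as 1 value and scales the array. The 2% trimmed means of the deposited intensities were 1000.6 (primitive) and 1000.4 (maturing). Total RNA per cell therefore cannot be compared. The arrays were rescaled to a common trimmed mean, floored at 441, and compared as log2 ratios. Intensities printed are as deposited. The table held 22690 probe sets, 64 of them controls, and 20380 had 1 gene symbol in the platform annotation, which alone were named.

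With 1 array per group no test was possible, and the number of arrays limits the precision. The members, the wider list, the marker lists, the 4-fold threshold and the floor were chosen with earlier results of these data known. All 9 members were named with every probe set. Of the wider list, partner subunits, isoenzymes and genes past 4-fold were to be named, and the other genes of the list named here were added after their values were seen. No likeness of pattern was computed, since each gene has 1 ratio. A total of 11 alternatives were tried. Steps were tested on simulated data with less noise than the SD between probe sets. That check covers the running of the steps and not the rate of false 4-fold calls in these data. Promoters came from RefSeq (GRCm38.p6). Python 3.11.15, numpy 2.4.6, pandas 2.3.3, statsmodels 0.14.6 and matplotlib 3.10.9 were used.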

Additional observations from a re-analysis of the deposited data

How the results depend on the processing

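The median of the 9 genes stayed negative in each of 9 alternatives that give a ratio, from -1.86 to -0.61, and between 6 of 6 and 9 of 9 measured members were lower in primitive HSC in them, or 8 of 9 where Idh3g was higher. Members at least 4-fold lower in primitive HSC numbered 4 in the main setting, 2 with the floor at percentile 75, 1 at an 8-fold threshold and 1 with the median of probe sets. In the wider list this count of 0 became 1 with the median ratio set to 0 and with the median of probe sets, 4 with the hybridisation controls and with the floor at percentile 25, and 7 at 2-fold, where 2 were higher in primitive HSC. Over all genes, higher and lower calls in primitive HSC were 305 and 415 in the main setting, 91 and 1231 with the hybridisation controls, 761 and 998 with the floor at percentile 25, 165 and 126 with it at percentile 75, 1385 and 1559 at 2-fold and 66 and 60 at 8-fold. The hybridisation controls, which had a median log2 ratio of 0.97 over 18 probe sets, moved the wider list median to -1.30 and the ratios of Cs to -3.57, Idh2 to -1.86, Idh3a to -3.25, Idh3b to -1.13, Idh3g to -0.89, Sdha to -1.22 and Mdh2 to -1.43. The floor at percentile 75 turned Dlat into a bound of -0.90 and Aco1 into one of -2.23. With such probe sets removed as can bind several transcripts, Aco1 had a bound of -2.20 and Idh3a one of -0.11, and the median of probe sets also gave Idh3a -0.11. These follow from the construction of each setting, and other causes of the differences between settings were not tested. No paired analysis was possible because each group has 1 array. No replicate could be left out for the same reason.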

Other observations

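Genes that build or serve the enzymes above showed no common direction. Lias, the lipoic acid synthase gene whose product equips Dlat and Dlst with their lipoyl arm, read 689 in primitive HSC and 1228 in maturing HSC (-0.83), while the transferase genes Lipt1 and Lipt2 were below the floor on both arrays. Sdhaf2, which attaches the flavin to Sdha, read 981 in primitive HSC and 2698 in maturing HSC (-1.46), and its second probe set was at least 1.23-fold lower in primitive HSC. Sdhaf1, an assembly factor of the iron-sulfur subunit, read 988 in primitive HSC and 793 in maturing HSC (0.32). Of the mitochondrial carriers, the dicarboxylate carrier gene Slc25a10 was slightly higher in primitive HSC (0.43) and the oxoglutarate carrier gene Slc25a11 slightly lower (-0.56), and Slc25a13 was below the floor on both arrays.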
